A study of Homo sapiens with 16 samples.

Results

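The 10 genes described here encode the proteins that take a human cell from G1 into S phase: the D-type cyclins CCND1, CCND2 and CCND3, their kinases CDK4 and CDK6, the E-type cyclins CCNE1 and CCNE2, their kinase CDK2, the phosphatase CDC25A, and RB1, the retinoblastoma protein that these kinases phosphorylate. They were taken by symbol from count tables that list 55510 gene symbols, and all 10 passed the filter on low counts that left 22007 genes for testing. The tables come from 16 RNA-seq libraries of CAL51, an established triple-negative breast cancer cell line with a near-diploid karyotype and 28% tetraploid cells per the labels, at passage 10. Growing cells received CC-671 at 3 µM or 10 µM, or the solvent DMSO as vehicle, for 6 h or 24 h. Each of the 4 treated groups has 3 libraries and each of the 2 vehicle groups has 2 libraries, and all groups share the line, the passage and the medium. CC-671 is a small molecule known as an inhibitor of the kinases TTK, which acts in the spindle checkpoint, and CLK2, which phosphorylates splicing factors.

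In textbook outline, mitogen signals raise the D-type cyclins, which bind CDK4 or CDK6 and begin the phosphorylation of RB1. RB1 then releases E2F transcription factors, whose targets include the E-type cyclins and CDC25A. Cyclin E with CDK2, freed of inhibitory phosphate by CDC25A, completes the phosphorylation of RB1 and starts DNA replication. Breast tumours often carry extra copies of CCND1, and drugs against CDK4 and CDK6 act only where RB1 is present.

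The libraries held between 104609173 and 123789361 counts at genes. Levels are given as CPM, counts brought to a common library total after scaling by the trimmed mean of M-values (TMM), and changes as log2 fold changes with standard errors (SE) from edgeR's quasi-likelihood test. A gene was called where its Benjamini-Hochberg adjusted p over all 22007 genes was under 0.05. The epithelial genes EPCAM (264 to 371 CPM), KRT8 (536 to 699.8 CPM) and KRT18 (460.1 to 619 CPM) were present in every library. So were KRT19 (239.6 to 325.2 CPM) and, at a lower level, CDH1 (26.23 to 45.24 CPM). The mesenchymal genes VIM (208.3 to 343.2 CPM), ZEB1 (61.43 to 73.85 CPM) and CDH2 (26.05 to 33.73 CPM) were present too. The hormone receptor genes ESR1 and PGR were at or near 0, while ERBB2 lay between 84.7 and 192 CPM. Of 8 leukocyte markers, MS4A1 and NKG7 were at 0 in every library, and the summed level of the list was 5.75 to 13.3 CPM, most of it from PTPRC. Of 7 fibroblast markers, the summed level was 269 to 353 CPM, most of it from COL3A1, while DCN and FAP were at or near 0. In these bulk samples fewer cells in a phase of the cycle and less RNA per cell cannot be told apart. The labels call the libraries biological replicates without naming separate cultures, so each p reflects how far these libraries spread, which may be technical.

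Compared per kilobase of annotated exon, CCND1 had the highest level of the 10 genes in vehicle at 6 h, at 234 CPM per kb, followed by CDK4 at 170.0 CPM per kb. CDK2 stood at 52.1, RB1 at 30.8, CDC25A at 22.8, CCNE1 at 18.0, CCNE2 at 15.1 and CCND3 at 10.5 CPM per kb. CDK6 was far lower, at 4.84 CPM per kb, and CCND2 was lower still, at 0.125 CPM per kb. Cyclin D1 and CDK4 were the most abundant cyclin and kinase messages of the set in CAL51. The order was the same in vehicle at 24 h. It depends on the annotated exon lengths, which may differ from the exons counted. By the annotation of GRCh38 the genes lie on chromosome 11 (CCND1), 12 (CCND2, CDK4 and CDK2), 6 (CCND3), 7 (CDK6), 19 (CCNE1), 8 (CCNE2), 3 (CDC25A) and 13 (RB1).

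**Figure D1:**
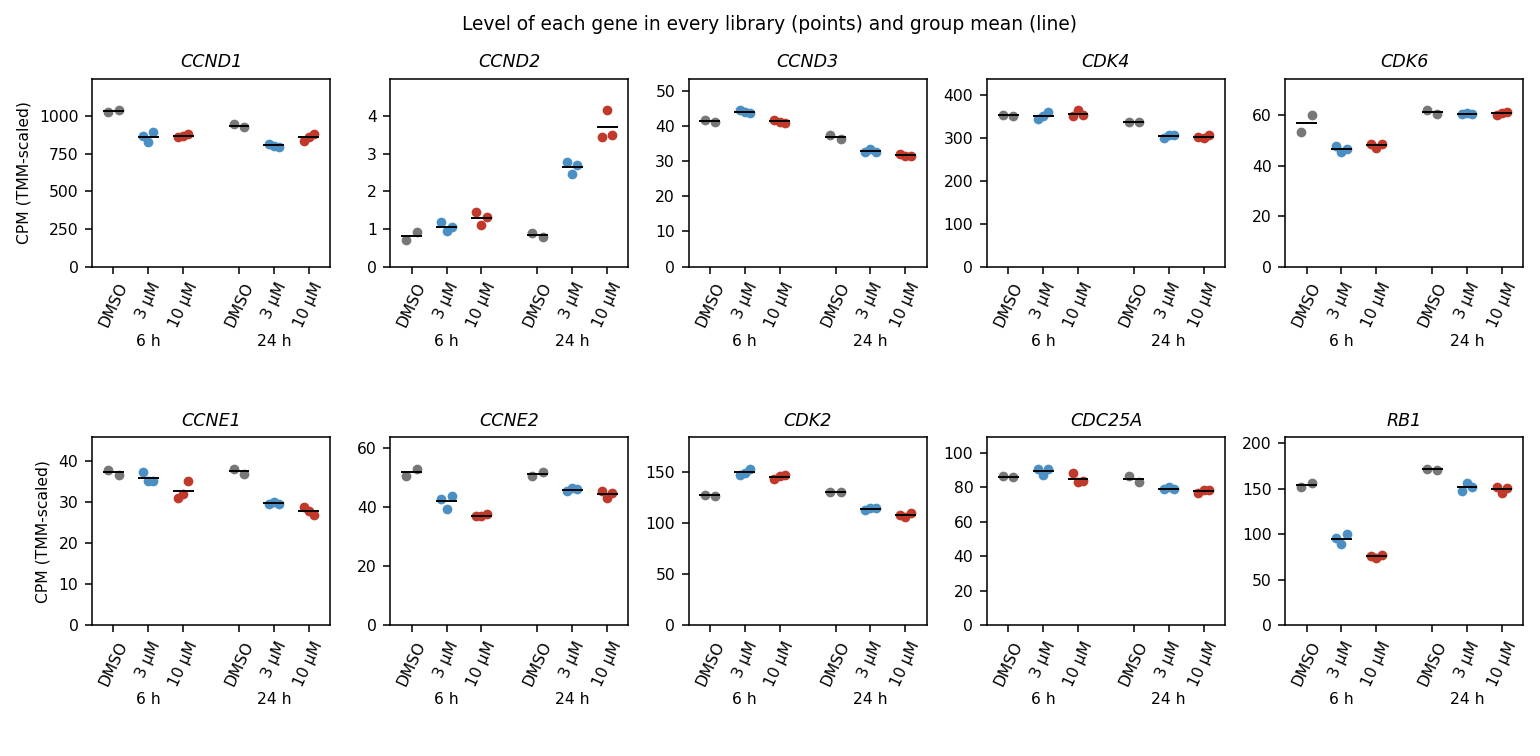
Level of each of the 10 genes in CPM (vertical axis, from 0, a separate scale for each gene) in every library (points), by treatment and time (horizontal axis), with the group mean as a line. RB1 falls to 73.5 to 77.2 CPM at 10 µM and 6 h from 152 and 156 CPM in vehicle, and CCND2 is at most 4.16 CPM, its level at 10 µM and 24 h.

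After 6 h at 3 µM, 7 of the 10 genes were called, where 63.2% of all tested genes were called. CCND2, CCND3 and CDK2 were higher, where 31.6% of all genes were called higher, and CCND1, CDK6, CCNE2 and RB1 were lower, where 31.6% were called lower. At 10 µM and 6 h, 7 genes were called against a background of 67.6%: CCND2 and CDK2 were higher, where 34% of all genes were, and CCND1, CDK6, CCNE1, CCNE2 and RB1 were lower, where 33.6% were. After 24 h, 9 genes were called at 3 µM, where the background was 60.6%, and 9 at 10 µM, where it was 63.6%. At both doses 8 genes were lower at 24 h, where 30.9% and 32.3% of all genes were called lower, CCND2 alone of the 10 was higher, where 29.7% and 31.3% were, and CDK6 was not called. The 2 doses share their vehicle libraries at each time, so their counts are not independent of each other. The median log2 fold change over the 10 genes was -0.03 and -0.11 at 6 h and -0.16 and -0.18 at 24 h, at 3 µM and 10 µM, and that over all tested genes lay between 0.00 and 0.02. A change of at least 2-fold was called for 1 gene at 10 µM and 6 h (RB1; 17.5% of all genes) and 1 gene at 24 h at 3 µM and at 10 µM (CCND2; 11.2% and 13% of all genes), and for 0 genes at 3 µM and 6 h (13.4% of all genes). The library ranges of treated and vehicle groups did not overlap for 8 and 7 of the 10 genes at 6 h, where 72.7% and 74.6% of all genes did not, and for 9 and 9 at 24 h, where 75.4% and 77.5% did not. These counts of separated groups lie near the background.

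The small falls at 24 h depended on the scaling of the libraries. With library totals in place of the TMM factors, the median over all genes moved up by 0.10 at 3 µM and by 0.11 at 10 µM on the log2 scale, and the values of the 10 genes moved up by about as much. The share of called genes that were higher then went from 48.9% to 62.9% at 3 µM and from 49.2% to 62.3% at 10 µM. On that scale 4 of the 10 genes were called at 3 µM and 24 h, 1 higher (CCND2) and 3 lower (CCND1, CCNE1 and CDK2), and 7 were called at 10 µM and 24 h, 2 higher and 5 lower. The 6 h comparisons moved by at most 0.02 in the median of all genes. Genes listed as markers of fibroblasts or leukocytes changed at 24 h too. All libraries are of the CAL51 line, so these genes are read as transcripts of the samples and not as a count of other cells. Over all genes at 24 h, 29.7% and 31.3% were called higher and 30.9% and 32.3% lower, at 3 µM and 10 µM. At 6 h the shares were 31.6% and 34% higher and 31.6% and 33.6% lower. The marker counts are read beside these shares. All 5 tested of 7 fibroblast markers were called lower at both doses at 24 h. Their list summed to 348 to 353 CPM in vehicle, 269 to 285 CPM at 3 µM and 269 to 281 CPM at 10 µM. At 6 h 3 of the 5 were called higher and 1 lower at each dose, with sums of 277 to 288 CPM in vehicle, 319 to 319.8 CPM at 3 µM and 326 to 338 CPM at 10 µM. Of 3 tested leukocyte markers, 2 were called higher and 1 lower at 3 µM and 24 h, and 1 higher and 1 lower at 10 µM. The list summed to 12.5 to 13.3 CPM in vehicle at 24 h, 6.55 to 7.17 CPM at 3 µM and 5.75 to 6.20 CPM at 10 µM, and the lower call was PTPRC (-0.99 and -1.26), while CD14 rose by 1.58 and 1.87. At 6 h 2 of the 3 were called higher at each dose, CD14 by 3.46 and 4.17 among them, and PTPRC was called lower at 10 µM (-0.23). The leukocyte sum at 6 h was 10.1 to 10.2 CPM in vehicle, 10.98 to 11.3 CPM at 3 µM and 10.8 to 11.8 CPM at 10 µM. Of 5 epithelial markers, 3 were called higher at 24 h at each dose, with 1 and 2 called lower. CDH1 was among the lower calls (-0.65 and -0.77). Of the mesenchymal markers at 24 h, VIM was called higher (0.54 and 0.68), and ZEB1 (-0.21 and -0.17) and CDH2 (-0.31 and -0.29) lower. The receptor gene ERBB2 was called lower at each dose and time, with log2 fold changes of -0.99 and -1.06 at 6 h. At 24 h they were -0.70 and -0.79. The part of any of these lists in the values of the 10 genes was not tested.

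**Figure D2:**
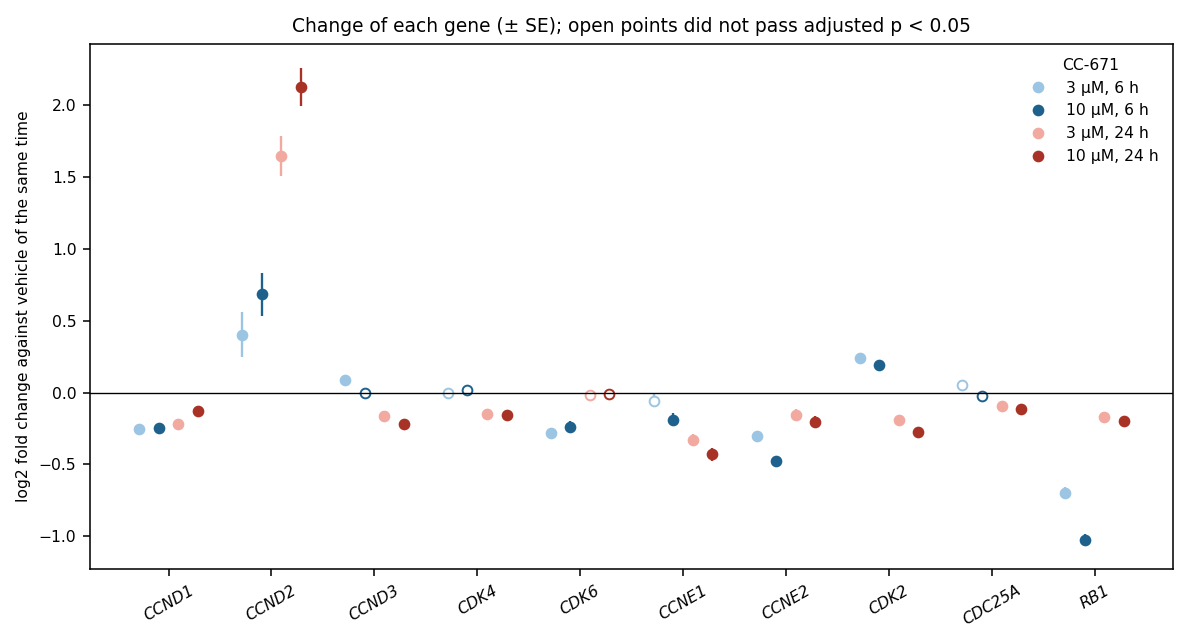
Log2 fold change (vertical axis) of each of the 10 genes (horizontal axis) at each dose against the vehicle of the same time, with SE bars. Filled points passed an adjusted p of 0.05 and open points did not. RB1 reaches -1.03 at 10 µM and 6 h and CCND2 reaches 2.13 at 10 µM and 24 h, and the other values at 24 h lie between -0.43 and -0.01. With library totals alone CDK6 lies above 0 at 24 h at both doses, CDC25A lies above 0 at 3 µM and 24 h, and CDK4 at 3 µM and CCND3 at 10 µM lie above 0 at 6 h.

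Among the D-type cyclins, CCND1 fell in all 4 comparisons. Its level was 1025 and 1039 CPM in vehicle at 6 h, 868, 829.8 and 892 CPM at 3 µM, and 860.2, 868 and 883 CPM at 10 µM. The 24 h values were 946 and 928 CPM in vehicle, 816, 804 and 796.5 CPM at 3 µM, and 836, 861 and 878 CPM at 10 µM. Every treated library lay below both vehicle libraries of its time. The log2 fold change was -0.26 ± 0.03 (SE; adjusted p = 4.69e-08) at 3 µM and -0.25 ± 0.03 (adjusted p = 8.79e-08) at 10 µM at 6 h, then -0.22 ± 0.03 (adjusted p = 9.83e-07) and -0.13 ± 0.03 (adjusted p = 0.00102) at 24 h. With library totals alone the call at 10 µM and 24 h was lost (-0.02, adjusted p = 0.648), and the value at 3 µM and 24 h was -0.12 (adjusted p = 0.000883). CCND1 shares 497 exon bases with LTO1 on the opposite strand, listed in the files as ORAOV1, which had 773 to 2442 counts per library and fell by 1.28 and by 1.40 at 6 h. The part of those reads in the CCND1 values was not tested.

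CCND2, cyclin D2, was the least abundant of the 10 genes and rose most. Its level was 0.701 and 0.912 CPM in vehicle at 6 h, 1.19, 0.947 and 1.06 CPM at 3 µM, and 1.45, 1.10 and 1.32 CPM at 10 µM. At 24 h the vehicle libraries held 0.899 and 0.788 CPM, those at 3 µM held 2.78, 2.45 and 2.70 CPM, and those at 10 µM held 3.45, 4.16 and 3.50 CPM. Every treated library lay above both vehicle libraries of its time, and the gap was far wider at 24 h. The log2 fold change at 24 h was 1.65 ± 0.14 at 3 µM (3.13-fold, adjusted p = 5.93e-11) and 2.13 ± 0.14 at 10 µM (4.37-fold, adjusted p = 1.10e-13). At 6 h it was 0.68 ± 0.15 at 10 µM (adjusted p = 0.000232) and 0.40 ± 0.15 at 3 µM (adjusted p = 0.0251). The call at 3 µM and 6 h was lost without vehicle replicate 1 (0.21, adjusted p = 0.353), without treated replicate 1 (0.30, adjusted p = 0.120) and without treated replicate 3 (0.40, adjusted p = 0.0509). CCND2 shares 989 exon bases with AC008012.1 on the same strand, so the reads of that stretch are uncertain, and their part was not tested.

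CCND3, cyclin D3, moved little. It stood at 41.7 and 41.0 CPM in vehicle at 6 h, at 44.4, 44.0 and 43.6 CPM at 3 µM, and at 41.7, 41.1 and 40.9 CPM at 10 µM. After 24 h CCND3 stood at 37.3 and 36.1 CPM in vehicle, at 32.5, 33.4 and 32.4 CPM at 3 µM, and at 31.9, 31.5 and 31.4 CPM at 10 µM. The 6 h libraries at 10 µM overlapped the vehicle, and all treated libraries at 24 h lay below it. CCND3 fell by 0.16 (adjusted p = 0.000161) at 3 µM and by 0.22 (adjusted p = 2.71e-06) at 10 µM on the log2 scale at 24 h, and the former was not called with library totals alone (-0.06, adjusted p = 0.119), where the latter was -0.11 (adjusted p = 0.00771). Its rise at 3 µM and 6 h was 0.09 ± 0.03 (adjusted p = 0.0198). Leaving out any of 4 of the 5 libraries compared ended that call: vehicle replicate 1, vehicle replicate 2, treated replicate 1 (adjusted p = 0.0867) and treated replicate 2 (0.0725). It was also lost in some settings that kept every library, and stood in 7 of 13 alternatives.

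The make-up of the D-type cyclin messages stayed dominated by CCND1. Per kilobase of exon, CCND1 made up between 94.5% and 95.8% of the summed level of the 3 genes in the group means. CCND2 went from 0.0508% ± 0.00897 (SD, n = 2) in vehicle at 6 h to 0.281% ± 0.0293 (SD, n = 3) at 10 µM and 24 h. The summed level itself was 245 ± 2.12 CPM per kb in vehicle at 6 h and 207 ± 7.09 CPM per kb at 3 µM. By 24 h the sum was 222 ± 3.04 CPM per kb in vehicle, 192 ± 2.16 CPM per kb at 3 µM and 203 ± 4.68 CPM per kb at 10 µM. CCND2 had the smallest share of the 3 genes in every group. The shares are a description, with no test.

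Of the D-type cyclin kinases, CDK4 was not called at 6 h and was slightly lower at 24 h, while CDK6 was lower at 6 h and not called at 24 h. CDK4 stood at 355 and 351 CPM in vehicle at 6 h, at 344, 352 and 361 CPM at 3 µM, and at 352, 365 and 353 CPM at 10 µM. The 6 h groups overlapped, with log2 fold changes of 0.00 ± 0.03 (adjusted p = 0.939) at 3 µM and 0.02 ± 0.03 (adjusted p = 0.658) at 10 µM. At 24 h CDK4 stood at 337 and 337 CPM in vehicle, at 299.5, 307 and 306 CPM at 3 µM, and at 302, 299.5 and 307 CPM at 10 µM. It fell by 0.15 at both doses on the log2 scale (adjusted p = 0.000100 at 3 µM and 5.09e-05 at 10 µM), and neither call stood with library totals alone (-0.05, adjusted p = 0.121, and -0.04, adjusted p = 0.142). CDK4 shares 1078 exon bases with TSPAN31 on the opposite strand, which had 477 to 1179 counts per library. TSPAN31 had log2 fold changes of -0.32 at 3 µM and -0.60 at 10 µM at 6 h, and 0.05 at both doses at 24 h. In vehicle it was higher by 0.41 at 24 h than at 6 h. The part of those reads in the CDK4 values was not tested.

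CDK6 stood at 53.2 and 60.2 CPM in the 2 vehicle libraries at 6 h, at 47.6, 45.3 and 46.7 CPM at 3 µM, and at 48.4, 47.2 and 48.5 CPM at 10 µM. All 6 treated libraries lay below both vehicle libraries, which themselves differed by more than the treated ones. The log2 fold change was -0.29 ± 0.04 (adjusted p = 3.19e-07) at 3 µM and -0.24 ± 0.04 (adjusted p = 4.35e-06) at 10 µM. The size varied with the vehicle library left out: without vehicle replicate 2 it was -0.19 (adjusted p = 0.000229) at 3 µM and -0.15 (adjusted p = 0.00279) at 10 µM, and without vehicle replicate 1 it was -0.39 (adjusted p = 3.02e-09) and -0.34 (adjusted p = 2.75e-08). At 24 h CDK6 stood at 62.0 and 60.6 CPM in vehicle, at 60.3, 60.6 and 60.5 CPM at 3 µM, and at 60.2, 60.9 and 61.2 CPM at 10 µM, and the groups overlapped. The log2 fold changes at 24 h were -0.02 ± 0.04 (adjusted p = 0.683) and -0.01 ± 0.04 (adjusted p = 0.800), and with library totals alone the latter was 0.10 (adjusted p = 0.0290). Per kilobase of exon CDK4 exceeded CDK6 by 35.3 ± 3.36 times (SD, n = 2) in vehicle at 6 h, by 42.8 ± 1.72 times at 3 µM and by 42.0 ± 1.52 times at 10 µM (n = 3 each). By 24 h vehicle had a ratio of 31.1 ± 0.467, with 28.4 ± 0.306 at 3 µM and 28.2 ± 0.331 at 10 µM. These ratios rest on annotated exon lengths of 2.076 kb for CDK4 and 11.729 kb for CDK6, which may differ from the exons counted. Without lengths, vehicle at 6 h had means of 352.9 CPM for CDK4 and 56.73 CPM for CDK6.

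The E-type cyclins separated by time: CCNE2 fell more at 6 h and CCNE1 more at 24 h. CCNE1 stood at 38.0 and 36.7 CPM in vehicle at 6 h, at 37.4, 35.2 and 35.1 CPM at 3 µM, and at 31.1, 32.1 and 35.1 CPM at 10 µM. CCNE1 at 24 h stood at 38.2 and 36.9 CPM in vehicle, at 29.7, 30.1 and 29.7 CPM at 3 µM, and at 28.8, 27.9 and 26.8 CPM at 10 µM. The treated libraries overlapped the vehicle at 3 µM and 6 h and lay below it in the other comparisons. CCNE1 was not called at 3 µM and 6 h (-0.06 ± 0.04, adjusted p = 0.266) and fell by 0.19 ± 0.04 (SE; adjusted p = 0.000436) at 10 µM. At 24 h it fell by 0.33 ± 0.04 (SE; adjusted p = 3.08e-07) at 3 µM and by 0.43 ± 0.04 (SE; adjusted p = 2.25e-09) at 10 µM, the deepest fall of the 10 genes at that time in this fit.

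CCNE2 stood at 50.7 and 53.0 CPM in vehicle at 6 h, at 42.9, 39.2 and 43.8 CPM at 3 µM, and at 36.9, 37.1 and 37.6 CPM at 10 µM. Its 24 h level was 50.4 and 52.0 CPM in vehicle, 45.4, 46.4 and 46.0 CPM at 3 µM, and 45.6, 43.0 and 44.6 CPM at 10 µM. Every treated library lay below both vehicle libraries of its time. The log2 fold change at 6 h was -0.30 ± 0.04 (adjusted p = 1.52e-07) at 3 µM and -0.48 ± 0.04 (adjusted p = 2.09e-11) at 10 µM, and at 24 h it was -0.16 ± 0.04 (adjusted p = 0.00145) and -0.20 ± 0.04 (adjusted p = 6.82e-05). With library totals alone the call at 3 µM and 24 h was lost (-0.06, adjusted p = 0.227), and the value at 10 µM was -0.09 (adjusted p = 0.0377). The exons of CCNE2 share 1629 bases with INTS8 on the opposite strand, a gene with 4364 to 10881 counts per library. INTS8 had log2 fold changes of -0.75 at 3 µM and -1.09 at 10 µM at 6 h, and of -0.54 and -0.61 at 24 h. The libraries are strand-specific per the labels, but the strand setting of the counting is not given in the sources used here, so reads of that stretch may be lost or misassigned, and their part in the CCNE2 values was not tested. Vehicle at 6 h had a ratio of CCNE1 to CCNE2 per kilobase of 1.19 ± 0.0665 (SD, n = 2), against 1.42 ± 0.0832 at 3 µM and 1.46 ± 0.0789 at 10 µM (n = 3 each), then 1.21 ± 0.0559 in vehicle, 1.07 ± 0.00702 at 3 µM and 1.03 ± 0.0398 at 10 µM at 24 h.

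CDK2, the kinase that both E-type cyclins activate, rose at 6 h and fell at 24 h. It stood at 128 and 126 CPM in vehicle at 6 h, at 147, 149 and 153 CPM at 3 µM, and at 143, 146 and 147 CPM at 10 µM. After 24 h CDK2 stood at 131 and 130.0 CPM in vehicle, at 113, 115 and 114 CPM at 3 µM, and at 108, 106 and 109 CPM at 10 µM. The groups did not overlap at either time, with treated libraries above vehicle at 6 h and below it at 24 h. The log2 fold change was 0.24 ± 0.03 (adjusted p = 5.56e-08) at 3 µM and 0.19 ± 0.03 (adjusted p = 1.52e-06) at 10 µM at 6 h, and -0.19 ± 0.03 (adjusted p = 2.60e-06) and -0.28 ± 0.03 (adjusted p = 4.37e-09) at 24 h. CDK2 kept its direction and its call in all 13 alternative settings of each of these 4 comparisons, though with library totals alone its 24 h values were -0.09 at 3 µM and -0.16 at 10 µM. CDK2 shares 287 exon bases with AC025162.1 on the opposite strand. The part of reads from that stretch in the CDK2 values was not tested.

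CDC25A, the phosphatase that activates cyclin E with CDK2, moved little. It stood at 86.4 and 86.2 CPM in vehicle at 6 h, at 90.8, 87.2 and 90.4 CPM at 3 µM, and at 88.2, 83.0 and 83.7 CPM at 10 µM, and was not called at either dose (0.05 ± 0.03, adjusted p = 0.172, and -0.02 ± 0.03, adjusted p = 0.571). CDC25A at 24 h stood at 86.3 and 83.0 CPM in vehicle, at 79.1, 80.1 and 78.9 CPM at 3 µM, and at 76.8, 78.7 and 78.7 CPM at 10 µM. All treated libraries at 24 h lay below both vehicle libraries, by a small margin. CDC25A fell by 0.09 at 3 µM (adjusted p = 0.0166) and by 0.12 at 10 µM (adjusted p = 0.00294) on the log2 scale. Neither call stood without vehicle replicate 1 (adjusted p = 0.212 and 0.0810) or with library totals alone, where the value at 3 µM was 0.01 (adjusted p = 0.866) and that at 10 µM was -0.01 (adjusted p = 0.855). The stricter filter on low counts also ended the call at 3 µM (-0.06, adjusted p = 0.129).

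The promoter windows of CDC25A and CCNE1, which were both lower at 24 h, are shown beside 1 window of CDK6, which was not called at 24 h. The calls of CDC25A at 24 h did not stand with library totals alone. Each is the 250 bases before an annotated start in RefSeq on GRCh38.p14, written 5′ to 3′ along the gene, and 6 of the 10 genes had an entry in that table. The E2F site was searched on both strands as TTTCCCGC, TTTCGCGC, TTTGCCGC and TTTGGCGC, and the cyclic AMP response element as TGACGTCA. Capitals mark the match, which lies 44 to 37 bases before the CDC25A start.
CDC25A, chr3:48188418-48188667, minus strand: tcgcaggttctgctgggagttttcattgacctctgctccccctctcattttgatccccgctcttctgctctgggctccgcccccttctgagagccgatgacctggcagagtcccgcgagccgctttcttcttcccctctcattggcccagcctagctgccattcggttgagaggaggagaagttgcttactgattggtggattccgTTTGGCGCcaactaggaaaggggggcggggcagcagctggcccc
CCNE1, chr19:29811741-29811990, plus strand: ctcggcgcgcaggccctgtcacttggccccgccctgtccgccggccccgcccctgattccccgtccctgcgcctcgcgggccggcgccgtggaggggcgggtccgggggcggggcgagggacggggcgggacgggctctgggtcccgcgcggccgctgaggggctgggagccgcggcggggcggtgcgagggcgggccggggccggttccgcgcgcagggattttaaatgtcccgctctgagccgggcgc
CDK6, chr7:92836574-92836823, minus strand: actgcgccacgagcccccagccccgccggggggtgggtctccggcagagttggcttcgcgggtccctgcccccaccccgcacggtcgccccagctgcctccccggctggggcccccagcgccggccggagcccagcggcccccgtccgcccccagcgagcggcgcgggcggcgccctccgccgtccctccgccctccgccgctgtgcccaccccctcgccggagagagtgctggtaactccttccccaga
The CDC25A window was 60.0% G and C, against 81.2% for CCNE1 and 80.0% for CDK6. Of the 35116 windows in the table, 2.79% held one of the E2F spellings and 1.65% held the response element. CDC25A held the 1 match among the 9 windows of these genes. The windows of CCND3 and CDK4, which were also lower at 24 h, and another CDK6 window held no match and are not shown. The RB1 window, not shown, was 36.8% G and C and belongs to an entry that starts inside the gene, so the main RB1 promoter was not searched. A match is a description of letters and not evidence of binding, and windows without one say nothing of the factor.

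RB1, the brake on E2F factors, had the largest fall of the 10 genes at 6 h, at each dose. Its level was 152 and 156 CPM in vehicle at 6 h, 95.4, 89.1 and 101 CPM at 3 µM, and 76.2, 73.5 and 77.2 CPM at 10 µM. The level at 24 h was 172 and 171 CPM in vehicle, 148, 156 and 152 CPM at 3 µM, and 152, 145 and 151 CPM at 10 µM. The 3 groups at 6 h did not overlap one another, while at 24 h the 2 doses overlapped each other and lay below vehicle. The log2 fold change at 6 h was -0.70 ± 0.04 at 3 µM (adjusted p = 3.62e-15) and -1.03 ± 0.04 at 10 µM (adjusted p = 5.19e-19), the latter a 2.04-fold lower level. At 24 h it was -0.17 ± 0.04 (adjusted p = 0.000321) and -0.20 ± 0.04 (adjusted p = 5.23e-05), and the call at 3 µM was lost with library totals alone (-0.07, adjusted p = 0.0899), where that at 10 µM was -0.09 (adjusted p = 0.0357). Per kilobase of exon RB1 ranked above CDC25A and CCNE1 in vehicle at 6 h, and at 10 µM and 6 h its mean of 15.1 CPM per kb ranked below both, though its libraries overlapped those of CCNE1 at a mean of 15.8 CPM per kb. The share of uniquely placed reads counted outside annotated exons also differed at 6 h: vehicle had 4.57% ± 0.267 (SD, n = 2), with 5.91% ± 0.381 at 3 µM and 6.65% ± 0.377 at 10 µM (n = 3 each). For 24 h the vehicle share was 4.43% ± 0.238, with 5.80% ± 0.171 at 3 µM and 5.93% ± 0.203 at 10 µM, and its part in the RB1 values was not tested.

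Between the doses, 4 of the 10 genes were called at 6 h, all lower at 10 µM, where 24.9% of all genes were called, 12% higher and 12.9% lower. RB1 was lower at 10 µM than at 3 µM by 0.33 ± 0.04 (SE; adjusted p = 1.81e-07) on the log2 scale, and CCNE2 was lower by 0.17 ± 0.04 (SE; adjusted p = 0.000779). The other calls were smaller. CCNE1 had a log2 fold change of -0.13 ± 0.04 (adjusted p = 0.0155), which was not called without replicate 1 at 10 µM (adjusted p = 0.112) or without replicate 1 at 3 µM (adjusted p = 0.0847). CCND3 had one of -0.09 ± 0.03 (adjusted p = 0.0218), which was not called without replicate 3 at 10 µM (adjusted p = 0.0660), replicate 1 at 3 µM (0.0587) or replicate 2 at 3 µM (0.0526). Without replicate 1 at 3 µM, 2 genes remained called, and CCND2 was called without replicate 2 at 10 µM (0.38, adjusted p = 0.0363) where with all libraries it was not (0.28 ± 0.13, adjusted p = 0.115). CDC25A was not called in this fit (-0.07 ± 0.03, adjusted p = 0.0654) and was called without replicate 1 at 10 µM (adjusted p = 0.0182) or replicate 2 at 3 µM (0.0453). Over 14 alternative settings, CCNE1 was called in 11, CCND3 in 9 and CDC25A in 4. For each of these genes, settings that kept every library were among those that changed the call.

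At 24 h 2 of the 10 genes were called between the doses, both higher at 10 µM, where 6.35% of all genes were called, 2.49% higher and 3.85% lower. The share of called genes that were higher was 39.3% over all genes and 50.2% with library totals alone. CCND2 was higher by 0.48 ± 0.10 (SE; adjusted p = 0.00263). CCND1 was higher by 0.09 ± 0.03 (adjusted p = 0.0493), and leaving out any of the 6 libraries compared ended its call (adjusted p from 0.0515 to 0.224), so that 1 gene remained called in each case. CDK2 was lower by 0.08 ± 0.03 and did not pass the threshold in this fit (adjusted p = 0.0581). It was called lower in 4 of 14 alternative settings, and CCNE1 was called lower in 1 of 14. For the other 7 genes the log2 difference between doses lay between -0.10 and 0.01, and a missed threshold does not show that the doses act alike.

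Vehicle alone differed between 24 h and 6 h in 3 of the 10 genes, where 20.5% of all genes were called, 11% higher and 9.55% lower. CCND1 fell by 0.14 ± 0.03 (SE; adjusted p = 0.00456) and CCND3 by 0.17 ± 0.04 (SE; adjusted p = 0.00123) on the log2 scale. RB1 rose by 0.15 ± 0.04 (SE; adjusted p = 0.00982). With 2 vehicle libraries at each time these calls rest on few samples. RB1 was not called without 24 h replicate 1 (adjusted p = 0.0754), 24 h replicate 2 (0.0560) or 6 h replicate 1 (0.107), and CCND1 was not called without 24 h replicate 2 (0.0708), when 1 gene, CCND3, was called. CDK6 was not called in this fit (0.11 ± 0.04, adjusted p = 0.0647) and was called higher in 3 of 12 alternative settings. Some of these kept every library, and 1 left out 6 h replicate 2 (0.20). The 24 h changes after CC-671 are therefore read against a vehicle that had itself moved in CCND1, CCND3 and RB1. All 5 tested fibroblast markers were also called higher in vehicle at 24 h than at 6 h, as was 1 of 3 leukocyte markers, PTPRC (0.35), and their part in these values was not tested.

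The change after CC-671 differed between 24 h and 6 h, by the test of the difference itself, in 9 of the 10 genes at each dose. The background was 49.3% of all genes at 3 µM (25.6% higher and 23.7% lower) and 54% at 10 µM (27.6% and 26.4%), and both times use their own vehicle. RB1 moved back towards vehicle: its log2 fold change was higher at 24 h than at 6 h by 0.52 ± 0.05 (SE; adjusted p = 5.97e-09) at 3 µM and by 0.83 ± 0.05 (SE; adjusted p = 5.30e-13) at 10 µM. CDK2 went the other way, by -0.43 ± 0.04 (adjusted p = 1.51e-09) at 3 µM and -0.47 ± 0.04 (adjusted p = 1.83e-10) at 10 µM, and its sign turned. CCND2 gained 1.24 ± 0.21 (SE; adjusted p = 1.80e-05) at 3 µM and 1.44 ± 0.21 (SE; adjusted p = 1.13e-06) at 10 µM. The E-type cyclins moved in opposite directions between the times, CCNE1 by -0.27 ± 0.06 and -0.24 ± 0.06, and CCNE2 by 0.15 ± 0.06 and 0.28 ± 0.06, at 3 µM and 10 µM. The call of CCNE2 at 3 µM was lost without vehicle replicate 1 at 24 h (adjusted p = 0.138), without vehicle replicate 2 at 6 h (0.160) and without treated replicate 2 at 6 h (0.0627), and with DESeq2 (0.13, adjusted p = 0.0851) or RLE scaling (0.13, adjusted p = 0.0666). With library totals alone the called differences shifted upwards, from 51.9% to 61.9% higher at 3 µM and from 51.1% to 61.3% at 10 µM over all genes, and that of CCNE1 at 10 µM was lost (-0.15, adjusted p = 0.0644).

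The genes of the wider pathway were read from a list of 62 partners in 8 roles, of which 61 could be tested because CCNA1 had too few counts. Of these 61, 26 were called higher and 26 lower at 3 µM and 6 h, 25 higher and 28 lower at 10 µM and 6 h, 21 higher and 26 lower at 3 µM and 24 h, and 22 higher and 28 lower at 10 µM and 24 h. Over all tested genes, in the same order of comparisons, 31.6%, 34%, 29.7% and 31.3% were called higher and 31.6%, 33.6%, 30.9% and 32.3% lower, and each count below is read beside these shares. The median log2 fold change of the list lay between -0.07 and -0.02 in these comparisons.

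The inhibitors of the cyclin-dependent kinases held the largest rise. Of 7 inhibitors, 5 were called higher at each dose at 6 h, where 31.6% and 34% of all genes were, with 1 called lower at 10 µM. At 24 h 3 were called higher at each dose, where 29.7% and 31.3% of all genes were, with 1 and 3 called lower, where 30.9% and 32.3% were. CDKN1A, which encodes the CDK2 inhibitor p21, rose by 1.08 ± 0.04 at 3 µM and by 1.31 ± 0.04 at 10 µM at 6 h, and by 1.96 ± 0.04 and 1.91 ± 0.04 at 24 h. CDKN2B, an inhibitor of CDK4 and CDK6, rose by 0.38 and 0.44 at 6 h and by 0.37 and 0.48 at 24 h. CDKN2C, another inhibitor of CDK4 and CDK6, fell by 0.59 and by 0.81 at 24 h.

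Of 12 pocket proteins and E2F or DP factors, 4 were called higher and 7 lower at 3 µM and 6 h, 4 and 6 at 10 µM and 6 h, 2 and 7 at 3 µM and 24 h, and 3 and 8 at 10 µM and 24 h. RBL1, which encodes the RB1 relative p107, fell by 0.89 and by 1.09 at 6 h, at 3 µM and 10 µM. E2F1 fell by 0.42 and by 0.43 at 6 h, and E2F8, a repressive E2F, had log2 fold changes of 0.37 and 0.45 at 6 h and of -0.28 and -0.48 at 24 h. TFDP1, the DNA-binding partner of the E2F factors, fell by 0.36 and by 0.47 at 24 h, while E2F2 rose by 0.39 and 0.36.

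Among 11 E2F targets of S phase entry, 4 were called higher and 6 lower at 3 µM and 6 h, 3 and 7 at 10 µM and 6 h, 7 and 3 at 3 µM and 24 h, and 5 and 4 at 10 µM and 24 h. Over all genes 29.7% and 31.3% were called higher at 24 h, and 31.6% and 33.6% lower at 6 h. PCNA, the sliding clamp of the replication fork, fell by 0.81 and by 1.13 at 6 h, and CDC6, which loads the replicative helicase, fell by 0.87 and by 1.26. ORC1, a subunit of the origin recognition complex, rose by 0.73 and 0.75 at the same time. At 24 h RRM2, the small subunit of ribonucleotide reductase, fell by 0.79 and by 0.95, while CDT1, another helicase loader, rose by 0.53 and 0.57.

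Of 4 tested later cyclins and CDK1, 1 was called higher and 2 lower at 3 µM and 6 h, and 1 and 3 at 10 µM and 6 h, where 31.6% and 33.6% of all genes were called lower. All 4 were called lower at each dose at 24 h, where 30.9% and 32.3% were. CCNA2, cyclin A2, fell by 0.95 and by 1.47 at 6 h and by 0.70 and by 0.86 at 24 h. CCNB1, cyclin B1 of mitosis, rose by 0.39 and 0.23 at 6 h and fell by 0.41 and by 0.52 at 24 h. The 3 subunits of the CDK-activating kinase, which phosphorylates CDK2 and CDK4, were all called in each of the 4 comparisons, where 63.2% and 67.6% of all genes were called at 6 h and 60.6% and 63.6% at 24 h. Of these, MNAT1 fell by 1.27 and by 1.45 and CCNH by 0.59 and by 0.87 at 6 h, while CDK7, the catalytic subunit, rose by 0.29 and 0.31. At 24 h CCNH rose by 0.10 and 0.14 and CDK7 by 0.16 and 0.23, and MNAT1 fell by 0.23 at both doses.

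Of 4 other regulators of inhibitory phosphate, 2 were called higher and 2 lower at each dose at 6 h, and 1 and 2 at 24 h. CDC25B, a relative of CDC25A, fell by 0.35 at both doses at 24 h, and WEE1, which phosphorylates CDK1 and CDK2, rose by 0.21 and 0.34 at 6 h. The largest change of these genes at 10 µM and 6 h was that of CDC25C, which rose by 0.42. Of 13 parts of ubiquitin ligases and related enzymes, 7 and 8 were called higher and 4 and 4 lower at 6 h, and 4 and 5 higher and 5 and 4 lower at 24 h. The largest change of this role at 10 µM and 6 h was that of BTRC, with a log2 fold change of -1.44. Its mean at 6 h was 41.0 CPM in vehicle, 18.8 CPM at 3 µM and 15.2 CPM at 10 µM. FBXW7, which targets cyclin E for breakdown, rose by 0.47 and 0.68 at 6 h and by 1.12 and 1.19 at 24 h. USP2 had log2 fold changes of -0.84 and -0.74 at 24 h. SKP2, which targets the inhibitor p27, fell by 0.49 and by 0.57 at 24 h. Of 7 genes upstream of the D-type cyclins, 2 and 1 were called higher and 3 and 3 lower at 6 h, and 2 and 3 higher and 3 and 2 lower at 24 h. FOSL1, an AP-1 subunit, rose by 0.74 and 1.15 at 6 h and by 1.33 and 1.47 at 24 h.

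**Figure D3:**
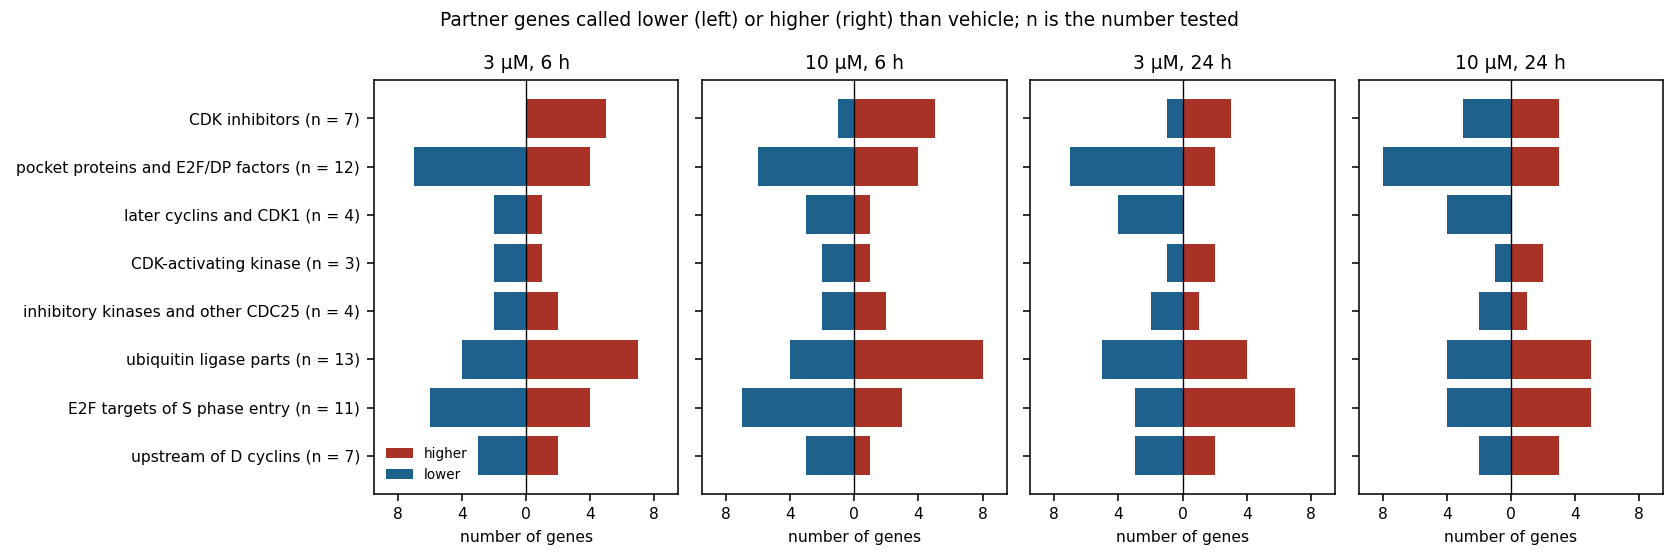
Number of partner genes (horizontal axis) in each of 8 roles (vertical axis) that were called higher (bars to the right) or lower (bars to the left) than the vehicle of the same time, in 4 comparisons. Higher and lower calls stand side by side in most roles, and the later cyclins and CDK1 have 4 lower calls of 4 tested at each dose at 24 h.

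The length of the gene was set beside the changes because long genes were lower at 6 h across the table. Over the 13995 protein-coding genes tested with an annotated span on GRCh38, the median log2 fold change at 10 µM and 6 h was 0.10 for 5414 genes under 20 kb, -0.05 for 3743 genes of 20 to 50 kb, -0.14 for 2302 genes of 50 to 100 kb, -0.22 for 1521 genes of 100 to 200 kb and -0.24 for 1015 genes over 200 kb. RB1 spans 178 kb with 27 exons, and its value of -1.03 lay below the lower quartile of its length class, which was -0.65. CDK6 spans 232 kb, and its value of -0.24 was close to the median of its class. CCND3 spans 115 kb over all its annotated transcripts, and its value of 0.00 lay above the median of the class it shares with RB1. Its RefSeq promoter windows begin at 42048689, 41941809 and 41939206 on chromosome 6. Transcripts from the starts further downstream span less. Which starts were used was not tested, so the length class of CCND3 is uncertain. The 5 genes under 20 kb, CCND1, CDK4, CCNE1, CCNE2 and CDK2, were on both sides of 0. Among these, CCNE2, at 16.9 kb, had a value of -0.48, below the lower quartile of -0.22 for its class, and so did CCND1, at 13.4 kb and -0.25. At 10 µM and 24 h the medians ran from 0.04 under 20 kb to -0.26 over 200 kb, where CDK6 had -0.01. Over the 10 genes, the correlation of log2 fold change with log span at 10 µM was -0.37 (Pearson) and -0.35 (Spearman) at 6 h, and 0.08 and 0.43 at 24 h, as a description of genes that share their libraries. These correlations take CCND3 at 115 kb.

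**Figure D4:**
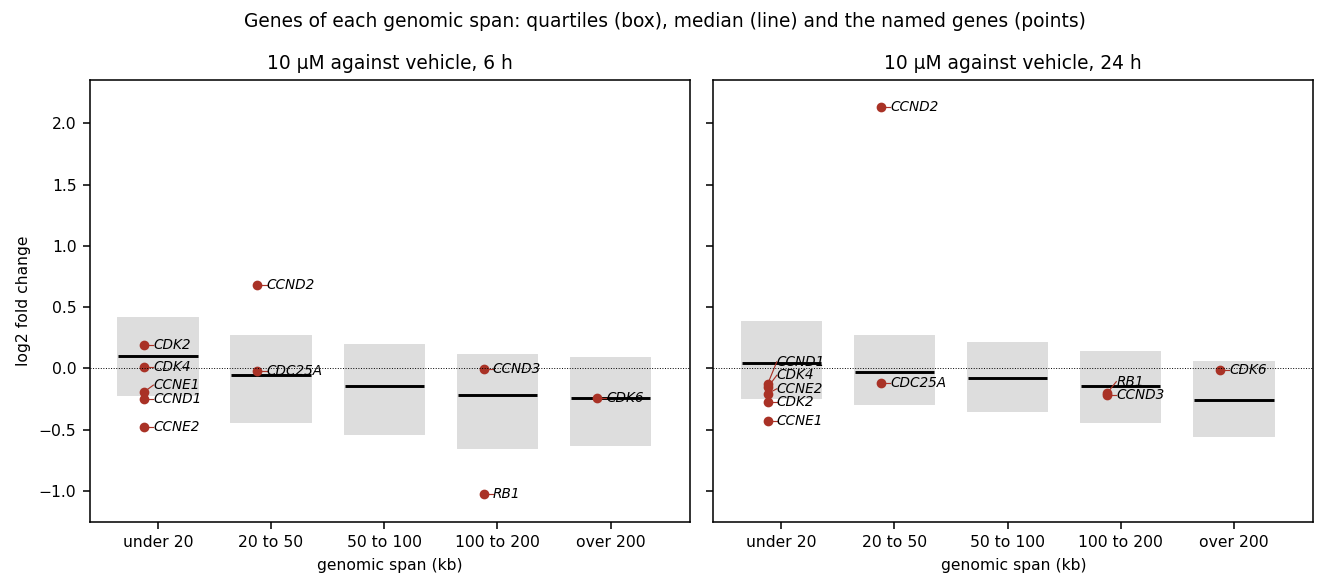
Log2 fold change at 10 µM (vertical axis) by genomic span in kb (horizontal axis, 5 classes) at 6 h (left) and 24 h (right). Boxes run from the lower to the upper quartile of all protein-coding genes of a class, lines are medians, and points are the named genes. At 6 h RB1 lies below its box at -1.03 and CDK6 lies on its median. With library totals alone CCND3 at 6 h and CDK6 at 24 h lie above 0. CCND3 is placed by the span of all its annotated transcripts, and those from downstream starts are shorter.

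The genes whose log2 CPM followed each member most closely over the 16 libraries, among 12105 genes, are given as a description, since all share the treatment groups. RB1 was followed by NUP133 (Pearson r = 0.998) and ELMOD2 (r = 0.998), and CDK2 by TPX2 (r = 0.997) and HNRNPA3P6 (r = 0.994). CDK4 was followed by EEF1B2P3 and DBF4 (r = 0.989 each), CDK6 by NFIB (r = 0.989) and VPS13C (r = 0.988), and CCNE2 by MICU2 (r = 0.985) and CPSF3 (r = 0.983). CCND3 was followed by TIMM8B and NME1 (r = 0.986 each) and CCND2 by CRYAB (r = 0.981) and WBP2 (r = 0.980). The closest genes were less alike for CCNE1, with DGCR2 (r = 0.965) and PLK1 (r = 0.964), for CDC25A, with MFSD2A (r = 0.954) and PGK1P2 (r = 0.949), and for CCND1, with GAREML (r = 0.948) and PAQR3 (r = 0.943). EEF1B2P3, HNRNPA3P6 and PGK1P2 carry the names of processed copies of other genes, whose reads the counting may share with the parent gene.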

How the data were processed

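RNA was poly-A selected from CAL51 cells and sequenced as strand-specific paired-end libraries, per the labels' protocols. The deposited values are raw counts per gene symbol from HTSeq after alignment with STAR to GRCh37 (hg19), and edgeR was also used by the authors, per the submitters' processing notes. How the counting treated strand, overlapping genes and marked duplicates, and its annotation release, is not stated in the labels. The 5 rows that name no gene held 16.9% to 20.2% of counts and were left out.

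From the counts, 1 model with 6 group means was fitted over all 16 libraries with edgeR 4.0.16 (R 4.3.3): filterByExpr (minimum count 10, minimum total 15), TMM scaling (factors 0.963 to 1.05), robust quasi-likelihood tests, two-sided, Benjamini-Hochberg over 22007 genes, a call at an adjusted p under 0.05, in 9 comparisons. Gene span and exon length came from GENCODE basic transcripts on GRCh38 and were used only as lengths. The fit was tested on simulated counts of 21472 to 21510 genes, 200 of them changed. It recovered between 60% and 73.0% of the genes changed 1.5-fold. For 2-fold changes the share was between 68.2% and 87.9%, and for 4-fold changes between 81.8% and 97.0%. False calls made up between 4.17% and 8.43%. In the simulation all other genes had the same mean in every group, whereas 60.6% to 67.6% of genes were called against vehicle in the data. The rates therefore do not describe the fit where most genes change, and they cannot judge the scaling.

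Alternatives were DESeq2 1.42.0, limma-voom (limma 3.58.1), scaling by RLE or by library totals alone, no filter or one of 1 CPM in 5 libraries, only the compared groups, the replicate number as a block, and leaving out each library. The text names all 10 members and the 2 most correlated genes per member with a mean log2 CPM of at least 1. Of the up to 4 called partners with the largest change per role and comparison, it names some and leaves others out. The members and lists were chosen with earlier results of these data known. Replicate numbers were treated as names only.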

Additional observations from a re-analysis of the deposited data

Results flagged for a closer look

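These results are listed because the change against vehicle differed between 24 h and 6 h by the test of that difference in edgeR's fit. Each value is the log2 fold change at 24 h minus that at 6 h, with the vehicle libraries of each time as the reference.

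At 3 µM the difference was above 0 for CCND2 (1.24), CDK6 (0.27), CCNE2 (0.15) and RB1 (0.52), and below 0 for CCND3 (-0.25), CDK4 (-0.14), CCNE1 (-0.27), CDK2 (-0.43) and CDC25A (-0.15). That of CDC25A was not called without vehicle replicate 1 at 24 h (-0.12, adjusted p = 0.0883) or with library totals alone (-0.07, adjusted p = 0.227), and that of CDK4 was not called with library totals alone (-0.07, adjusted p = 0.131). CCNE2 was not called with DESeq2 (0.13, adjusted p = 0.0851), with RLE scaling (0.13, adjusted p = 0.0666) or without vehicle replicate 1 at 24 h (0.13, adjusted p = 0.138), vehicle replicate 2 at 6 h (0.11, adjusted p = 0.160) or treated replicate 2 at 6 h (0.12, adjusted p = 0.0627), and it was 0.23 with library totals alone. CDK6 was 0.17 (adjusted p = 0.00911) without vehicle replicate 2 at 6 h.

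At 10 µM it was above 0 for CCND1 (0.12), CCND2 (1.44), CDK6 (0.23), CCNE2 (0.28) and RB1 (0.83), and below 0 for CCND3 (-0.21), CDK4 (-0.17), CCNE1 (-0.24) and CDK2 (-0.47). That of CCND1 was not called without vehicle replicate 2 at 24 h (0.11, adjusted p = 0.109) without vehicle replicate 2 at 6 h (0.11, adjusted p = 0.0890), with DESeq2 (0.10, adjusted p = 0.0522) or with RLE scaling (0.10, adjusted p = 0.0698), and was 0.21 with library totals alone. CDK6 was 0.14 (adjusted p = 0.0355) without vehicle replicate 2 at 6 h, CCND3 was -0.12 (adjusted p = 0.0351) with library totals alone, and that of CDK4 was not called with library totals alone (-0.07, adjusted p = 0.0836). No cause was tested for any of these differences.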

How the results depend on the processing

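Of 1280 values of single members under the alternatives, 1174 kept direction and side of the threshold, 54 lost and 21 gained a call, and 31 changed sign; where the cause is not the alternative's own construction, it was not tested. No value that changed sign was called in both settings. With library totals alone 4 members were called at 3 µM and 24 h instead of 9. Between doses at 6 h, fitting only the compared groups gave 2 members and 3420 genes, and leave-outs gave 2 to 5 members. Between doses at 24 h, RLE scaling, no filter and the replicate block each gave 1 member, only the compared groups gave 4 members and 3753 genes, and leave-outs gave 1 member and 654 to 858 genes. For vehicle over time, leave-outs gave 1 to 4 members and 2604 to 3579 genes; leaving out 1 vehicle library leaves 1 in its group, assumed to vary like the other groups.

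Same-numbered libraries did not deviate together (correlations from -0.0757 to 0.0808), so the numbers were not used for pairing; the replicate block moved no other count by over 1.5 times.

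Signs changed as follows. CDK4 at 3 µM and 6 h was 0.0115 (DESeq2 and RLE), 0.0204 (no scaling) and 0.0278 (stricter filter), and -0.0316 to 0.0029 over leave-outs. CDK4 at 10 µM and 6 h was -0.0035 (no filter) and -0.0115 to 0.0150 over leave-outs, and between doses at 24 h it was 0.0029 (no scaling). CCND3 at 10 µM and 6 h was 0.0067 (DESeq2 and RLE), 0.0129 (no scaling), 0.0034 (replicate block) and 0.0432 (stricter filter). CDC25A at 10 µM and 6 h was 0.0241 (stricter filter) and at 3 µM and 24 h 0.0071 (no scaling). CDK6 at 10 µM and 24 h was 0.0984 (no scaling, adjusted p = 0.0290), 0.0052 (compared groups), 0.0261 (stricter filter) and -0.0297 to 0.0027 over leave-outs, and at 3 µM and 24 h it was 0.0813 (no scaling) and 0.0184 (stricter filter). CCND1 between doses at 6 h ranged from -0.0129 to 0.0356 over leave-outs. In vehicle over time CCNE1 was -0.0029 (no filter) and -0.0001 (compared groups), and leave-outs gave -0.0195 to 0.0309 for CCNE1, -0.0559 to 0.0148 for CCNE2, -0.1144 to 0.2699 for CCND2 and -0.0560 to 0.0007 for CDC25A.

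CCND2 had the lowest counts of the 10 genes, and its SE of 0.15 at 6 h was the widest of the 10 genes at that time.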
